A study of Mus musculus with 2 samples.

Results

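Actin exists in cells as single subunits (G-actin) and as filaments (F-actin), and a small set of proteins holds, recycles and releases the subunits. The 9 genes described here are the 2 cytoplasmic actins (Actb and Actg1), the thymosins Tmsb4x and Tmsb10, profilin 1 (Pfn1), cofilin 1 (Cfl1), destrin (Dstn), gelsolin (Gsn) and cyclase-associated protein 1 (Cap1). They were chosen by name, as rows of the gene table, with earlier results of these data known. All 9 were found among its 31053 genes. Their raw counts were followed across the cell populations of mouse back skin, and between a mouse with induced miR-205 and a control.

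Thymosins bind single subunits and keep them out of filaments. Profilin carries subunits to growing filament ends, and cyclase-associated protein helps recharge the subunits that cofilin and destrin release from old filaments. Gelsolin cuts filaments and caps their ends. G-actin also binds the MRTF coactivators, so that the factor SRF, which reads a DNA element named the CArG box in actin and other cytoskeletal genes, is active when the free subunit pool is small. miR-205 is a microRNA abundant in skin epithelium, and the study asked how raising it alters the actin network of hair follicle stem cells (HF-SCs).

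At postnatal day 53 the back skin of 2 mice, a control and a miR-205-induced mouse, was dissociated, and 1 10x 3′ library was made from each. Both mice carried the K14-H2BGFP allele, were matched for sex and are labelled C57BL/6. Per the study's methods, the induced mouse combined Krt14-rtTA with a pTRE2-miR-205 transgene first made in FVB mice, so that the Krt14 promoter, active in basal epithelium, sets where induction occurs, and the control was a littermate run on the same chip. Doxycycline chow was given for 4 days from day 49, and the extraction protocol says so for both mice, whereas the sample label calls the control untreated. Epidermal, hair follicle and dermal cells were sorted at 3:5:2, so the numbers of cells in these 3 compartments were set by the sort. With 1 library per group there is no replicate check of any difference below, no test was possible, and all intervals are exact 95% intervals that cover counting error only.

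The libraries held 55465594 (control) and 49733560 (induced) unique molecular identifiers (UMIs, 1 per captured mRNA molecule). The filter kept 3936 and 3628 cells, with median depths of 12198.5 and 11752.5 UMIs, and 5 barcodes among the kept cells occurred in both libraries. Clustering, from which the members and the listed actin genes were withheld, gave 23 clusters, and the 21 with at least 20 cells in each library are used here. Cluster 1 was HF-SC-like, with 7 HF-SC markers raised (Cd34, Krt24, Postn, Krt15, Lhx2, Tbx1, Dkk3). No cluster met the marker rule for hair germ, and cluster 7, led by Lgr5 and Nppc, came nearest. Cluster 8, led by Slc26a7 and Notum, had only the dermal papilla markers Wif1 and Rspo3 raised, so it stays unnamed too. The endogenous miR-205 host transcript 4631405K08Rik, which does not report the transgene, was at 103 CPM (UMIs per 1e6 UMIs of the population) in control cells and 106 CPM in induced cells. In HF-SC-like cells it was at 193 CPM and 121 CPM.

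The mature miR-205-5p sequence (GRCm38.p6, chr1:193507503-193507524, minus strand, RefSeq) is shown because its seed, bases 2 to 8 in capitals, is what was searched for in the members. The second line is the 1 place where the 3′ untranslated regions (UTRs) of the 9 members hold the complement of all 7 seed bases, ATGAAGG, in capitals: bases 575 to 581 of the 683-base UTR of Actb. The third line is the CArG box, in capitals, of the Actg1 promoter, whose first base lies 90 bases before the start (GRCm38.p6, chr11:120348566-120348595, minus strand).
mmu-miR-205-5p: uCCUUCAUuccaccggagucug
Actb 3′ UTR site: ccaacttgatgtATGAAGGctttggtc
Actg1 promoter CArG box: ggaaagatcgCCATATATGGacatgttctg

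The UTR search used the longest annotated 3′ UTR of each gene in a GENCODE transcript set. ATGAAGG was in 10.3% of the 20007 UTRs, and in 6.23% of the 2471 UTRs of about the length of that of Actb (0.8 times to the inverse of that). Actg1 has a UTR of nearly the same length, 719 bases, without this complement and without its 6-base core TGAAGG. Tmsb4x and Tmsb10 hold only the 6-base core, once each, and Cfl1 holds ATGAAGG once in its coding sequence. Promoters of 8 of the 9 members were in the RefSeq promoter table, which runs from 250 bases before to 50 after each start, and the missing entry is Actb. The CArG box was in 1.63% of its 32851 promoters, and Actg1 was the 1 member of the 8 to hold it. A match of letters is a description and does not show binding. The paper itself reports miR-205 captured on the Actb 3′ UTR by CLEAR-CLIP, which ligates the miRNA to its target site. It also lists Tmsb4x among the bound genes. Whether the captured Actb site is the site shown here was not checked.

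The members lie on 7 chromosomes (GRCm38.p6 gene spans from RefSeq). Actb (ENSMUSG00000029580) spans chr5:142903115-142907976 and Actg1 (ENSMUSG00000062825) spans chr11:120345687-120348495. Their coding sequences are 1128 bases each and identical at 88.7% of bases, but the 3′ UTRs, which 3′ libraries read, share no run longer than 11 bases. Counts of the 2 actins can therefore be told apart, while processed copies of Actb, Cfl1, Pfn1 and the thymosins elsewhere in the genome could have cost reads in the authors' counting.

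In the control library both actins were highest in a cluster of the interfollicular epidermis (IFE), and in the induced library Actb was highest in cluster 19, led by Lyz1 and Clec4e (12540 CPM, against 10997 CPM in cluster 0) and Actg1 in cluster 9, led by Krt18 and Ccl2 (12847 CPM against 12361 CPM). In control cells Actb ranged from 1981 CPM in T cell-like cells (interval 1748 to 2236) to 13157 CPM in IFE basal-like cluster 0, led by Igfbp3 and Epgn (13085 to 13228). Actg1 ranged from 2041 CPM in dermal fibroblast-like cells (1969 to 2115) to 15032 CPM in cluster 0 (14955 to 15109). HF-SC-like cells stood in place 4 of 21 for both genes in the control library, with 9085 CPM of Actb and 12974 CPM of Actg1, but in places 10 and 11 in the induced library. The other IFE basal-like cluster, 14, led by Ly6a and Pou3f1, had much less of both, 4245 CPM of Actb and 6223 CPM of Actg1 in the control. Cluster 16, led by Sostdc1 and Hes1, had 2830 CPM of Actb and 3912 CPM of Actg1. In the control order of Actb, 6 of 20 pairs of neighbours had overlapping intervals, such as clusters 7 and 3, and for Actg1 also 6 of 20.

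The named keratinocyte clusters held more Actg1 than Actb UMIs, and most of the other named cells the reverse. Actb made up 41.2% of actin UMIs in control HF-SC-like cells (40.8% to 41.5%) and 32.0% in cluster 12, led by Pthlh and Bdnf. It made up 60.1% in dermal fibroblast-like cells, 60.1% in melanocyte-like cells, 65.2% in the myeloid-marked cluster 19 led by Lyz1 and Clec4e, and 72.9% in Langerhans or antigen-presenting-like cells (71.5% to 74.3%). T cell-like cells, at 41.5% (37.6% to 45.5%), were an exception.

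Among the thymosins, Tmsb4x was highest in cluster 19, at 19015 CPM in the control and 27526 CPM in the induced library, followed by T cell-like cells (9638 and 10453 CPM) and Langerhans or antigen-presenting-like cells (8344 and 9252 CPM). Among follicle keratinocytes, inner bulge-like cells had most, 6532 and 6889 CPM, and HF-SC-like cells had 4121 and 5067 CPM. Sebaceous gland-like cells had least, 776 and 639 CPM. Tmsb10, its close relative, was highest in T cell-like cells (4781 and 6130 CPM) and dermal fibroblast-like cells (3039 and 2847 CPM). It was lowest in IFE suprabasal-like cluster 10, led by Krt1 and Krt10, at 149 CPM in the control (136 to 163), 32.1 times below T cell-like cells.
In UMIs, thymosins per actin ran from 0.0815 in control sebaceous gland-like cells and 0.123 in IFE basal-like cluster 0 to 1.02 in dermal fibroblast-like cells and 3.02 in T cell-like cells. The Tmsb4x share of the thymosin pair was 95.1% in cluster 10 and 87.3% in HF-SC-like cells, but 41.5% in dermal fibroblast-like cells and 35.9% (29.9% to 42.1%) in melanocyte-like cells.

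The filament-severing genes also divided by cell type. Dstn was an epithelial gene, with 1249.9 CPM (1212 to 1288) in suprabasal-like cluster 10 and 1213 CPM in IFE basal-like cluster 0 of the control, against 98.1 CPM in Langerhans or antigen-presenting-like cells and 75.9 CPM in T cell-like cells. Cfl1 varied less, from 426 CPM in IFE suprabasal-like cluster 6, led by Flg2 and Lor, to 1842 CPM in the 24 melanocyte-like cells. Cfl1 therefore held 25.8% of Cfl1 plus Dstn UMIs in cluster 6 (24.7% to 26.9%) and 56.3% in HF-SC-like cells. In T cell-like cells it held 90.6% (83.3% to 95.4%).
Pfn1, which varied least of the 9 in the control, had a range of 3.30 times between melanocyte-like cells (359 CPM) and cluster 19 (1187 CPM) in the control. These ends rest on only 24 and 28 control cells. Cap1 was the scarcest, from 33.6 CPM in dermal fibroblast-like cells to 149 CPM in IFE basal-like cluster 0, and 19 of its 20 pairs of neighbours had overlapping intervals.

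**Figure D1:**
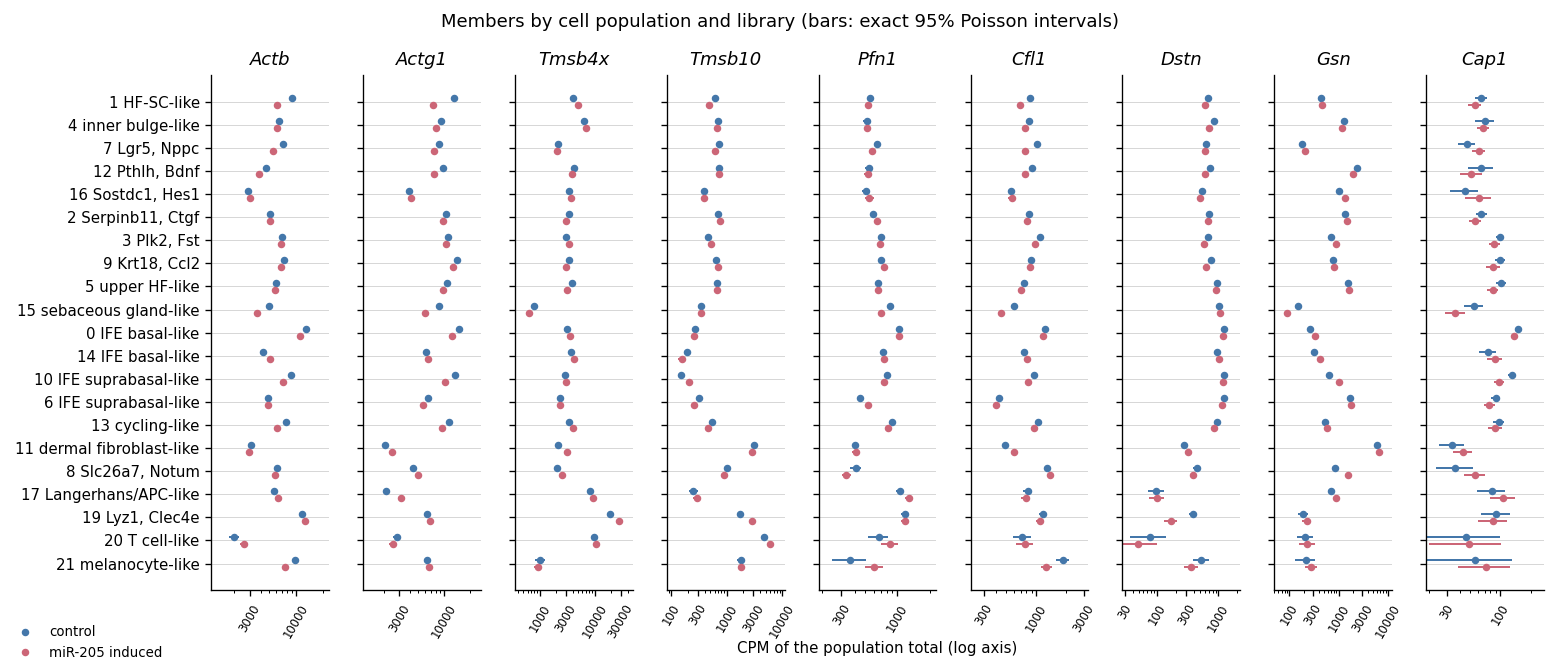
Level of each member in 21 cell populations, as CPM of the population's summed UMIs on a log axis with its own range per gene, for the control (blue) and miR-205-induced (red) library; bars are exact 95% Poisson intervals. Actb and Actg1 peak in IFE basal-like cluster 0 of the control (13157 and 15032 CPM), Gsn in dermal fibroblast-like cells and Tmsb4x in cluster 19.

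Gsn had the widest range of any member in the control, 38.4 times, from 153 CPM in sebaceous gland-like cells to 5884 CPM in dermal fibroblast-like cells (5761 to 6008). Among keratinocytes it was highest in cluster 12 (2336 and 1952 CPM in the control and induced libraries), IFE suprabasal-like cluster 6 (1729 and 1780 CPM) and upper HF-like cells (1559 and 1637 CPM). HF-SC-like cells had 449 and 458 CPM, and cluster 7 had 178 and 208 CPM.
Because fibroblasts hold so much Gsn, its level in HF-SC-like and other cells was set beside what free fibroblast RNA could give. Dermal fibroblast-like cells of the control had 0.0558 Gsn UMIs per UMI of the 4 stromal genes Col1a1, Col1a2, Col3a1 and Dcn, and HF-SC-like cells had 11.6. At the fibroblast ratio, the 38.7 CPM of stromal genes in HF-SC-like cells would carry 2.16 CPM of Gsn, against the 449 CPM measured. With cluster 8 as the source, at 1.73 Gsn UMIs per stromal UMI, the figure was 67.0 CPM. That ratio gave 81.5 CPM of the 178 CPM measured in cluster 7. In IFE basal-like cluster 14, whose control cells held 457 CPM of the stromal genes, it gave 790.3 CPM, above the 311 CPM measured, while the fibroblast ratio gave 25.5 CPM.

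**Figure D2:**
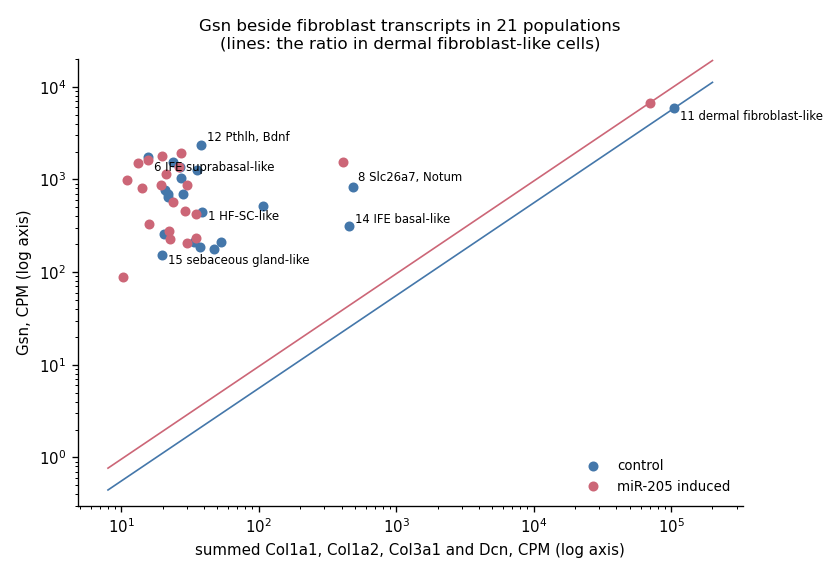
Gsn level (CPM, log axis) against the summed level of Col1a1, Col1a2, Col3a1 and Dcn (CPM, log axis), 1 point per population and library, with lines at the Gsn-to-stromal ratio of dermal fibroblast-like cells in each library. All other populations lie above the lines; HF-SC-like cells of the control had 449 CPM of Gsn beside 38.7 CPM of the stromal genes.

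Over the 42 points formed by 21 populations and 2 libraries, Pearson's r of log2(CPM + 1) between Actb and Actg1 was 0.64, between Actg1 and Dstn 0.74, and between Dstn and Tmsb10 -0.64. These describe points that share libraries and depth. Genes outside the members that followed them most closely, among 10802 genes, were Baz1a, Etv3 and Actr3 for Actb (r = 0.75, 0.74 and 0.74), with Actr3 an Arp2/3 complex subunit. For Actg1 they were Kpna2, Fam83h and the integrin gene Itgb6 (0.85, 0.83 and 0.83), and for Dstn Stard10, the epithelial factor Klf5 and Arhgef5 (0.90, 0.89 and 0.88). Cfl1 went with Wdr1, whose product helps cofilin take filaments apart, and with Lims1 and Coro1c (0.72, 0.71 and 0.70). Tmsb4x went with Kdm5c, the leukocyte coronin Coro1a and Sh3bgrl3 (0.78, 0.78 and 0.77), and Tmsb10 with Tram1, Prkd3 and BC005537 (0.87, 0.87 and 0.83). Pfn1 went with M6pr, Ucp2 and Smox (0.83, 0.82 and 0.77), Gsn with Eml1, Pcsk6 and Has1 (0.82, 0.80 and 0.73), and Cap1 with Nlrp10, Il1rn and Rap2b (0.75, 0.75 and 0.74).

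Between the libraries, both actins were lower in induced HF-SC-like cells, and Tmsb4x was higher. Actg1 was 12974 CPM in the control (12855 to 13094) and 7433 CPM in the induced library (7342 to 7524), a log2 ratio of -0.80 (-0.83 to -0.78), which is 1.75-fold lower. Actb was 9085 CPM (8985 to 9186) and 6021 CPM (5940 to 6103), a log2 ratio of -0.59 (-0.62 to -0.57), which is 1.51-fold lower. Any part of the seed complement in the Actb 3′ UTR was not tested. The intervals of the 2 libraries do not overlap for either gene, and Actg1 differed more than Actb. The share of Actb among actin UMIs was accordingly higher in the induced library, 44.8% (44.3% to 45.2%) against 41.2%. This gap of 3.57 points was 1.40 points with a 5% mitochondrial limit and 0.989 points when cells were assigned by a marker gate.

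A gene with at least 200 UMIs over both libraries is counted as called when its CPM stood at a ratio of at least 5:4 between the libraries, a log2 ratio of 0.32 in size. The members were chosen with earlier results of these data known, so their counts are not an independent comparison with all genes. In HF-SC-like cells 4 of the 9 members were called lower and none higher, where 14.1% of 3676 genes were called lower and 16.1% higher. Besides the actins they were Tmsb10, 600.1 CPM in the control and 470 CPM in the induced library (log2 ratio -0.35, -0.45 to -0.26), and Cfl1, 861 and 688 CPM (-0.32, -0.40 to -0.25), which lay just past that line. Tmsb4x, at 4121 and 5067 CPM, had a log2 ratio of 0.30 (0.27 to 0.33) and lay just short of it. Dstn was 669 and 601 CPM (-0.16, -0.24 to -0.07), Cap1 was 64.3 and 56.2 CPM, Pfn1 was 556 and 533 CPM, and Gsn was 449 and 458 CPM. The intervals of the log2 ratio held 0 for the last 3. The median over the members was -0.19, and over all 3676 genes 0.02. When each cell was instead assigned by its highest marker class, a gate that shared 27.6% of the HF-SC-like cells, 2 of 9 members were called lower (Actb -0.36, Actg1 -0.42) and control Actg1 was 8150 CPM. The share of all genes called under this gate was not computed.

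Thymosin UMIs per actin UMI were 0.214 in control and 0.412 in induced HF-SC-like cells, and UMIs of all 7 binding proteins per actin UMI were 0.332 and 0.585. The summed binding proteins themselves were 7321 CPM and 7872 CPM, while summed actin was 22060 CPM (22059.5) and 13454 CPM.

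Single cells showed the same shift across most of the range. HF-SC-like cells were thinned to 5000 UMIs each, and the 24 (control) and 14 (induced) shallower ones were not counted. The median Actg1 count per cell was 56 (quartiles 28 and 92.5) in 331 control cells and 23 (13 and 50) in 337 induced cells. For Actb the medians were 35 (20 and 61) and 21 (13 and 34), and for Tmsb4x 17 (11 and 26) and 22 (15 and 32). Of the Actg1 UMIs of HF-SC-like cells, the 5 highest cells held 5.07% in the control and 6.99% in the induced library, so the level did not rest on a few cells.

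**Figure D3:**
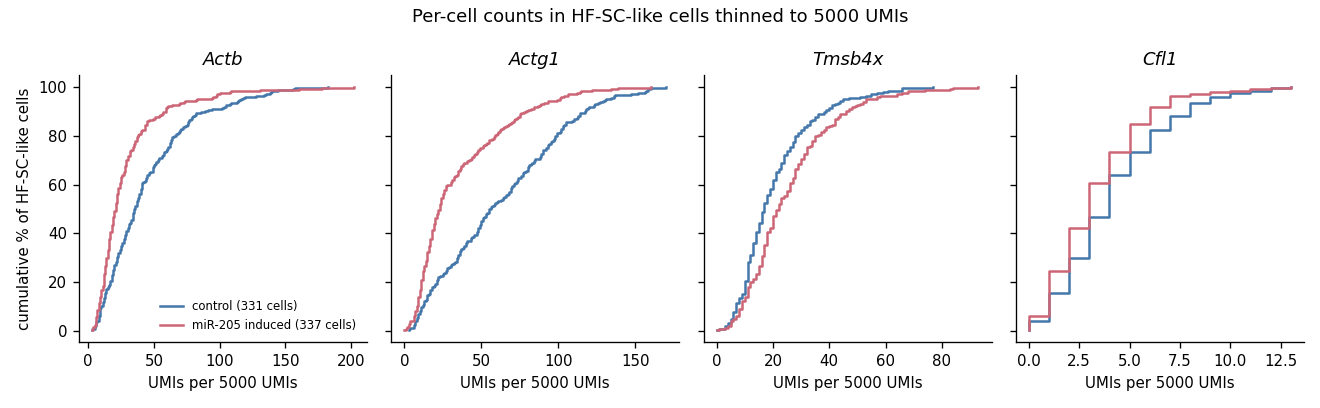
Cumulative share of HF-SC-like cells (vertical axis, percent) by UMIs of Actb, Actg1, Tmsb4x and Cfl1 per cell thinned to 5000 UMIs (horizontal axis), 331 control cells in blue and 337 induced cells in red. The induced curve lies to the left for Actg1 (median 23 against 56) and Actb (21 against 35) and to the right for Tmsb4x (22 against 17).

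Some properties of the HF-SC-like cells differed between the libraries beside these values. The 18 dissociation and stress genes summed to 29560 CPM (29559.5) in the control and 34816 CPM in the induced library. Of these genes, 6 were called higher and 0 lower, beside 16.1% and 14.1% of 3676 genes. Mitochondrial UMIs made up 5.70% and 5.80%, with median depths of 9720.0 and 9912 UMIs. Markers of antigen-presenting cells summed to 82.9 and 75.7 CPM and those of dermal fibroblasts to 39.6 and 31.6 CPM, far below their levels in their own clusters. When the HF-SC-like cells of both libraries were divided into 3 equal parts by their share of stress genes, the log2 ratio of Actb was -0.64 in the lowest, -0.40 in the middle and -0.53 in the highest part, and that of Actg1 was -0.89, -0.80 and -0.55. Parts by mitochondrial share gave -0.54 to -0.61 for Actb and -0.65 to -0.92 for Actg1, and parts by depth gave -0.38 to -0.88 and -0.70 to -0.95.

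Cluster 7, the hair germ-nearest cells, had lower Actb and Cfl1 in the induced library. Actb was 7078 CPM (6969 to 7187) and 5474 CPM (5386 to 5563), a log2 ratio of -0.37 (-0.40 to -0.34), and Cfl1 was 1013 CPM and 770.0 CPM (-0.40, -0.48 to -0.31). Actg1 was 8697 and 7677 CPM (-0.18, -0.21 to -0.15), and the Actb share of actin was 44.9% (44.4% to 45.4%) and 41.6% (41.1% to 42.1%). Cap1 was 46.7 and 61.3 CPM (0.39, 0.03 to 0.76). In all, 2 of 9 members were called lower, where 20.1% of 2832 genes were, and 1 higher, where 14.8% were, so the members' shares were near those of all genes. The stress genes summed to 12729 CPM and 19912 CPM in this cluster, with 14 of 18 called higher. In equal parts of these cells by stress share, lowest to highest, the log2 ratio of Actb was -0.17, -0.13 and -0.45. That of Actg1 was -0.06, -0.08 and -0.14, and that of Cfl1 was -0.29, -0.33 and -0.18. The part of the stress genes in the result was not tested. The ratios of the whole cluster moved with the cell filter, clustering and scaling. Over 7 other settings Actb lay between -0.65 and -0.10 and was called lower in 4, Actg1 lay between -0.71 and 0.01 with the same sign in 5, Cfl1 was called lower in 3, and Cap1 turned to -0.14 under the marker gate. The cells compared changed too: they held 23.5% of cluster 7 under the 5% mitochondrial limit and 33.7% under the gate. They held 62.6% without the highest-scoring doublet barcodes and 64.1% with members and lists kept for clustering. There the matching cluster was led by Acta2 and Tagln, and another cluster with Lgr5 and Id2 raised was not used.

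Parts of the epidermis and the sebaceous gland also had lower actins in the induced library. In IFE basal-like cluster 0, Actb was 13157 and 10997 CPM (log2 ratio -0.26, -0.27 to -0.25) and Actg1 15032 and 12361 CPM (-0.28, -0.29 to -0.27), both short of the 5:4 line. No member was called lower there, where 7.84% of 5609 genes were, and only Gsn was called higher (257 and 330 CPM, 0.36), where 9.38% were. In IFE suprabasal-like cluster 10, Actg1 was 13644 and 10397 CPM (-0.39, -0.41 to -0.37) and Cap1 131 and 97.5 CPM (-0.42, -0.64 to -0.21), both called lower as were 13.6% of 3349 genes. Gsn (639 and 997 CPM, 0.64) and Tmsb10 (149 and 206 CPM, 0.47) were called higher there, as were 10.7% of genes. Among the other IFE clusters, in basal-like cluster 14 Actb was 4245 and 5044 CPM (0.25, 0.20 to 0.30), higher in the induced library, and in suprabasal-like cluster 6 it was 4863 and 4771 CPM (-0.03, -0.06 to 0.00). Actg1 in cluster 6 was 6574 and 5704 CPM (-0.20, -0.23 to -0.18), lower in the induced library. The stress genes had 9 of 18 called higher and 0 lower in cluster 10, and their part in these values was not tested.
Sebaceous gland-like cells had 4 of 8 testable members called lower, beside 19.6% of 2205 genes, and none higher, beside 12.5%. Actg1 was 8713 and 5969 CPM (-0.55, -0.58 to -0.51), Actb 4992 and 3584 CPM (-0.48, -0.52 to -0.43), Cfl1 594 and 444 CPM (-0.42, -0.55 to -0.29), and Gsn 153 and 89.0 CPM (-0.78, -1.07 to -0.51). Dstn, at 1010 (1009.9) and 1064 CPM, had an interval that held 0 (0.08, -0.02 to 0.17). Of 17 stress genes with enough UMIs in these cells, 8 were called lower and 4 higher, with a median of -0.31, and their part in the result was not tested.

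No member was called lower in dermal fibroblast-like cells or cluster 8. In dermal fibroblast-like cells Actb was 3075 and 2976 CPM (-0.05, -0.10 to 0.01) and Actg1 2041 and 2485 CPM (0.28, 0.22 to 0.35). Tmsb4x was 2155 and 3181 CPM (0.56, 0.50 to 0.62) and was the 1 member called higher, beside 14.5% of 2303 genes (9.38% of genes were called lower). The Tmsb4x share of the thymosins was 41.5% in the control and 52.8% in the induced library. In cluster 8, Gsn was 834 and 1525 CPM (0.87, 0.73 to 1.01) and the 1 member called higher, beside 15.4% of 1344 genes, with none lower, beside 16.1%. Cell numbers in these clusters also differed, 136 and 185 fibroblast-like cells and 141 and 222 cells of cluster 8.

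Across all 21 populations Actb had its lowest log2 ratio in HF-SC-like cells and Actg1 too, and the whole interval lay below 0 in 12 populations for Actb and 13 for Actg1, and above 0 in 4 and 6. The intervals count molecules only, and their narrowness reflects depth, not agreement between animals. Inner bulge-like cells, neighbours of the HF-SCs in the follicle, had 6393 and 6129 CPM of Actb (-0.06) and 9353 and 8129 CPM of Actg1 (-0.20), and upper HF-like cells 5886 and 5830.1 CPM of Actb (-0.01). Cluster 12, led by Pthlh and Bdnf, had the HF-SC markers Postn, Lhx2 and Nfatc1 raised. Its summed actin was 14437 CPM in the control and 11410 CPM in the induced library. Of its 8 testable members, 1 was called lower and none higher, beside 12.1% and 9.82% of 1375 genes. All 8 had log2 ratios below 0, with a median of -0.24. Pfn1 had an interval that held 0 in 12 of 21 populations and Cap1 in 16. Tmsb4x had its whole interval above 0 in 13 populations, and Gsn in 12.

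**Figure D4:**
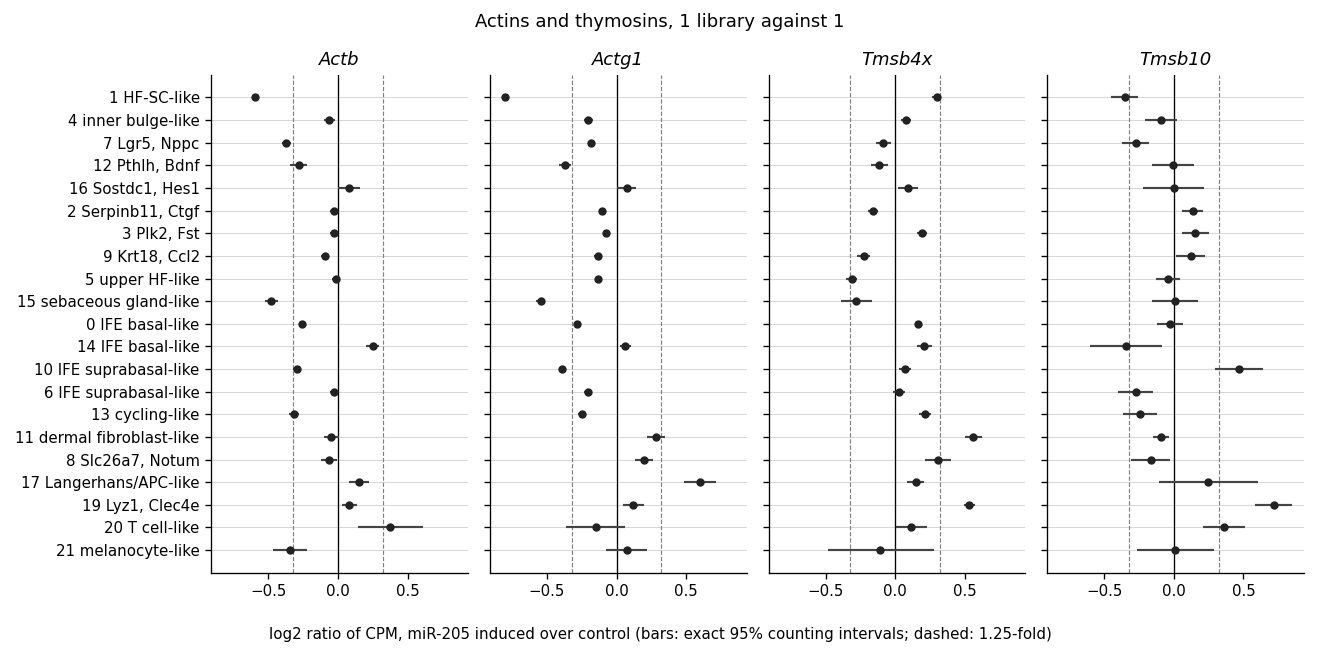
Log2 ratio of CPM, miR-205 induced over control, for the 2 actins and 2 thymosins in 21 populations; bars are exact 95% counting intervals and dashed lines mark the 5:4 ratio. HF-SC-like cells lie farthest to the left for Actb (-0.59) and Actg1 (-0.80), whereas Tmsb4x there lies at 0.30.

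Other genes of the same pathway were read from 3 lists. Of 32 actin turnover genes, 15 had enough UMIs in HF-SC-like cells, of which 3 were called lower and 3 higher, near the 14.1% and 16.1% of all genes, with a median log2 ratio of 0.00. Cfl2, the muscle-type cofilin, was 132 and 70.0 CPM (-0.91, -1.14 to -0.69), and Wdr1 was 143 and 92.4 CPM (-0.63, -0.83 to -0.42). Pfn2, the second profilin, was 89.3 and 139 CPM (0.64, 0.44 to 0.85), unlike Pfn1, whose interval held 0.

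The MRTF-SRF list holds Srf, genes for its coactivators and genes known to respond to it. Of 8 with enough UMIs in HF-SC-like cells, 7 were called lower and none higher, with a median of -0.78, beside 14.1% of all genes called lower. This list was chosen with earlier results of these data known, so its count is not an independent comparison with all genes. Fhl2, a LIM-domain SRF cofactor, was 52.2 and 18.1 CPM (-1.52, -1.97 to -1.11), and Srf was 105 and 48.5 CPM (-1.11, -1.38 to -0.84). Cnn2, a calponin, was 62.6 and 31.6 CPM (-0.98), Vcl, which encodes the adhesion protein vinculin, was 131 and 69.2 CPM (-0.93), and Zyx, which encodes zyxin of stress fibres, was 289 and 187 CPM (-0.63). Fhl2 and Cnn2 were each seen in few cells, Fhl2 in 105 of 355 control and 44 of 351 induced cells, and Cnn2 in 120 and 75. Tagln2, the 1 gene of the 8 that was not called and named here after its value was seen, was 1207 and 1261 CPM (0.06). Of the 10 list genes found in the promoter table, 4 hold the CArG box (Srf, Vcl, Cnn2 and Fhl2), beside 1.81% of 27025 genes. The list was made of genes tied to SRF, which reads this box, so this count is not an independent result.

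In cluster 7 the MRTF-SRF list had 2 of 8 genes called lower, Fhl2 (62.8 and 39.0 CPM, -0.68) and Vcl (130.0 and 89.6 CPM, -0.54), and a median of -0.27, beside 20.1% of all genes called lower. The turnover list had 3 of 10 called lower and 2 higher there, beside 20.1% and 14.8% of all genes, so both lists were near the background. Those lower were Capg, a filament cap, at 394 and 275 CPM (-0.52), Mical2, a filament oxidase, at 84.6 and 61.7 CPM (-0.45), and Cfl2, at 156 and 124 CPM (-0.33). Svil, which encodes supervillin, was 37.9 and 53.2 CPM (0.48) and Capzb, a capping protein subunit, was 125 and 157 CPM (0.33).
Of 5 other actins, only Acta2, the smooth muscle form, had enough UMIs, and only in cluster 7, with 11 UMIs in the control and 444 in the induced library. Of the 444, 441 came from 5 of 209 cells. Of the other smooth muscle or pericyte markers, Tagln was also higher in the induced cells of this cluster (146 against 40.6 CPM). So were Cnn1 (22.3 against 8.29 CPM) and Myh11, which had 27 UMIs in 4 induced cells and 3 in 1 control cell. Des went the other way, with 0 UMIs against 6 in the control, and Rgs5 had 0 in both libraries. In dermal fibroblast-like cells 3 of 4 testable MRTF-SRF genes were called higher and none lower, with a median of 0.41, beside 14.5% of all genes called higher. In sebaceous gland-like cells 4 of 5 were called lower, with a median of -0.64, beside 19.6% of all genes.

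**Figure D5:**
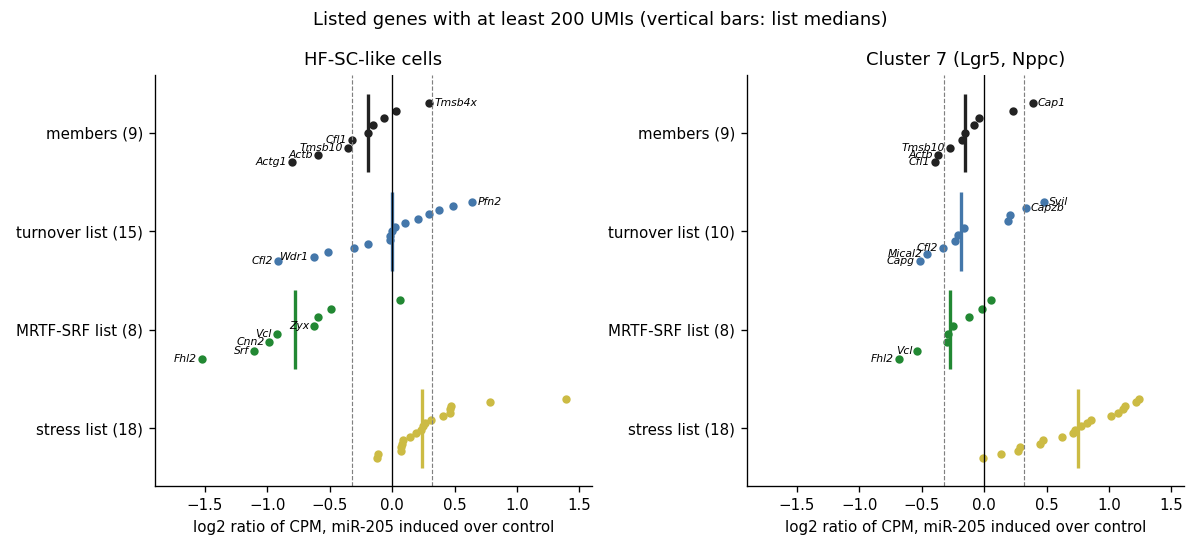
Log2 ratio of CPM, miR-205 induced over control, of each listed gene with at least 200 UMIs in HF-SC-like cells (left) and cluster 7 (right), by list, with vertical bars at the list medians and dashed lines at the 5:4 ratio; Acta2 lies beyond the axis and is not plotted. In HF-SC-like cells the MRTF-SRF genes have a median of -0.78 and the turnover genes of 0.00.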

How the data were processed

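Cells of 1 control and 1 miR-205-induced mouse skin were counted from 10x 3′ libraries. The deposited count matrices hold raw UMI counts per gene and cell, which the authors made with Cell Ranger (3.0.1 is named in the file header) on build mm10, per the submitters' processing notes. The study's filter was applied (over 200 and under 5000 genes, under 10% mitochondrial UMIs), and doublets were not removed. Cells of both libraries were clustered with Seurat 5.3.0 (R 4.3.3; 2000 variable genes, 30 dimensions, resolution 0.8), after 56 member and list genes had been withheld. A cluster was called "-like" when at least 3 markers of the class were raised at least 2-fold at 100 CPM or more. A marker of the class also had to be among the cluster's 10 leading genes, and no other class could have more there. Ties went to the class with more raised markers. Cluster 12 had 3 raised HF-SC markers (Postn, Lhx2 and Nfatc1), none of them among its leading genes, and stayed unnamed.

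UMIs were summed per library and cluster and divided by the cluster's total (CPM; 3′ counts were not divided by length). Poisson, conditional-ratio and Clopper-Pearson intervals at 95% were computed with scipy 1.17.1 in Python 3.11.15. There was 1 library per group, so no p-value was computed, and intervals cover counting error only. Named genes were all members, at most 8 listed genes per population past a CPM ratio of 5:4, and the 3 genes most correlated with each member. Alternatives were a 5% mitochondrial limit, removal of the barcodes with the highest Scrublet doublet scores (scanpy 1.11.5), a marker gate per cell, other totals, count minimums and folds. Equal parts of the HF-SC-like cells were added after the data were seen. The Scrublet setting left out 124 control and 105 induced barcodes, set by an assumed doublet rate, whereas Scrublet's own threshold called 4 in each library. Scripts were tested on simulated data. The members and lists were chosen with earlier results of these data known.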

Additional observations from a re-analysis of the deposited data

Results flagged for a closer look

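For 5 members, populations differed in direction between the induced and the control library, each with the whole counting interval on 1 side of 0 and past a ratio of 5:4. These differences between populations were not tested, since each rests on 1 library per group. The share of all genes that meet this rule was not counted, so the members cannot be set apart from other genes by it. Actb had a log2 ratio of -0.59 in HF-SC-like cells and 0.38 (0.14 to 0.61) in T cell-like cells, which held 261 and 366 Actb UMIs. Actg1 had -0.80 in HF-SC-like cells and 0.60 (0.48 to 0.71) in Langerhans or antigen-presenting-like cells. Tmsb10 had -0.35 in HF-SC-like cells and 0.72 (0.59 to 0.85) in cluster 19, led by Lyz1 and Clec4e. That cluster had 28 control and 33 induced cells, and its 5 highest cells held 63.8% and 40.7% of the Tmsb10 UMIs. Gsn had -0.78 in sebaceous gland-like cells and 0.87 in cluster 8, led by Slc26a7 and Notum. Cap1 had -0.42 in IFE suprabasal-like cluster 10 and 0.39 in cluster 7, led by Lgr5 and Nppc, where it turned to -0.14 when cells were assigned by a marker gate.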

How the results depend on the processing

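Under 7 other settings for cells, clustering and scaling, the log2 ratio in HF-SC-like cells stayed between -0.61 and -0.36 for Actb and between -0.83 and -0.42 for Actg1, past the 5:4 ratio in 7 of 7, whereas Cfl1 stayed past it in 1 of 7 (-0.34 to -0.17) and Tmsb10 in 5 of 7 (-0.47 to 0.00). These settings are not independent, as those for scaling reused the same HF-SC-like cells. The matching cluster under the 5% mitochondrial limit held 27.5% of those cells. Of the cells assigned by the marker gate, 23.2% were HF-SC-like in the main clustering. The 4 members called lower became 2 under the marker gate per cell, 2 with members and lists kept among the variable genes and 2 at 1.5-fold. The 7 MRTF-SRF genes called lower became 4 under the gate. The share of all genes called was not computed under these other settings, so these counts have no background beside them. Actg1 in control HF-SC-like cells, 12974 CPM, was 16017 CPM under 5% mitochondrial UMIs, 8150 CPM under the gate, 13614 CPM with the genes kept, 16932 CPM without mitochondrial and ribosomal protein genes in the total, and 12367 CPM as a mean over cells. The 3.57 points between the libraries in the Actb share were 1.40, 0.989 and 2.93 points under the first 3 of these. The Gsn that free RNA could give, 2.16 CPM, was 67.0 CPM with cluster 8 as the source. The Cap1 ratio in cluster 7, 0.39, was -0.14 under the gate, which held 33.7% of the cells of that cluster. The cause was not tested. No paired analysis was possible because each group has 1 library, and for the same reason no replicate could be left out. Depth limits Cap1 most, with intervals that held 0 in 16 of 21 populations.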

Other observations

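The endogenous miR-205 host transcript 4631405K08Rik was highest in inner bulge-like cells, 578 CPM in the control and 378 CPM in the induced library, and was also seen in sebaceous gland-like cells (339 and 222 CPM). In IFE basal-like cluster 0 it was 27.4 CPM and 54.6 CPM. These counts do not measure the mature miRNA or the transgene.

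Among listed genes not described above, Coro1b and Tmod3, which encode a coronin and a filament-end cap, were called higher in HF-SC-like cells (log2 ratios 0.49 and 0.37) and Mical2 was called lower (-0.51). They were named after their values were seen.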
